A study of Homo sapiens with 4 samples.

Results

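The cytosolic ribosomal protein genes, 67 of the 18417 genes measured on the arrays, were followed in endometrial cancer cells after silencing of Efp. Members were the genes whose symbol begins with RPL, RPLP or RPS and a digit, without the RPS6K kinases, the RPS4Y genes and 19 pseudogenes, and only probe sets with exactly 1 gene symbol were used. By symbol, 44 members belonged to the large subunit and 23 to the small subunit. Of the 67, 57 were canonical ribosomal proteins, 8 were paralog-like genes, and 2 matched the rule without encoding a ribosomal protein. The last were RPS19BP1, a binding partner of RPS19, and RPL34-DT, a divergent transcript beside RPL34. A further 22 coding genes that fit the rule, among them RPLP0, RPS18, RPL15 and RPL13A, had no probe set of their own and were not analysed here.

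Gene expression was measured in Ishikawa and HEC-1A cells, both lines of endometrial adenocarcinoma. Ishikawa cells are well differentiated and express the estrogen receptor ERα, and HEC-1A cells are moderately differentiated and lack it. Each line was transfected with siEfp, an siRNA against Efp, the E3 ubiquitin ligase encoded by TRIM25, or with siControl, a non-targeting siRNA, and 1 array was hybridised per line and siRNA, 4 in all. Ishikawa cells were given siEfp #A or siControl for 48 h, whereas for HEC-1A cells neither the duplex nor the time is given in the sources used here. Values are log2 signals after RMA, so a difference of 1 is a 2-fold change, and with 1 array per condition a difference within a line has no replicate check.

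The ribosome is built from a small subunit, which reads the mRNA, and a large subunit, which joins amino acids, and each ribosomal protein is needed in step with the ribosomal RNAs. Ribosomal protein mRNAs are abundant and carry a short run of pyrimidines at their 5′ end, the TOP motif, through which the kinase mTORC1 and the RNA-binding protein LARP1 control their translation. Free RPL5, RPL11 and RPL23 can bind MDM2, the ligase that degrades p53. Most ribosomal protein mRNAs have processed pseudogenes of nearly identical sequence, so a signal can include transcripts of these copies.

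The start of the transcript is shown for the members on which the results below turn, because the TOP motif lies there. Each window runs from 10 bases before to 20 bases from the annotated start, from RefSeq promoters of GRCh38.p14, and capitals mark the longest run that opens with C and goes on with at least 4 further pyrimidines (C or T), on the strand of the gene, within 10 bases of the start. The windows are, in order, chr19:41860245-41860274 (+), chr1:153990752-153990781 (+), chr5:82278335-82278364 (-), chr14:49598691-49598720 (-), chr1:6199576-6199605 (-), chr3:170870176-170870205 (-), chr15:63157458-63157487 (-) and chrX:154398055-154398084 (+).
RPS19: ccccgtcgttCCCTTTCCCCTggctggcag
RPS27: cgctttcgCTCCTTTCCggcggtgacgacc
RPS23: cggtgCTTCTCTCTTTCgctcaggcccgtg
RPS29: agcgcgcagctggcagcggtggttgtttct
RPL22: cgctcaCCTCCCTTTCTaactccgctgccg
RPL22L1: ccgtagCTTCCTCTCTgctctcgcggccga
RPS27L: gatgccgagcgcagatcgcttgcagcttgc
RPL10: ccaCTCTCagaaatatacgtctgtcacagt
RPS19, which had a higher signal with siEfp in both lines, and RPS27 and RPS23, which had lower signals, all have such a run over their start. RPS29, lower in both lines, and RPS27L, which differed in opposite directions, have none in this window. A single annotated start per gene was searched, so a run at another start of the gene would not be seen.

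Pyrimidines at the start were common among the members. Of the 67 members, 54 matched a RefSeq promoter of a coding gene, 48 of them canonical. The annotated start was itself a C with at least 4 pyrimidines after it, often inside a longer run, in 33 of the 48 canonical members (68.8%), against 729 of 15843 coding promoters (4.6%). A run that opened within 10 bases of the start was present in 43 of the 48 (89.6%), against 33.8% of all coding promoters. Of the 6 paralog-like genes with a promoter, 1 had a C with at least 4 pyrimidines exactly at the start. A run that opened within 10 bases was present in 2 of these 6 (33.3%). In the 300 bases around the start, searched on both strands, CCGGAAG was present in 35.4% of canonical members and 14.2% of all coding promoters, AAGATGG in 12.5% and 6.4%, TATAAA in 8.33% and 9.63%, and GGGCGG in 58.3% and 58.5%. None of these motifs contains another, and a match is a description of sequence only.

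Efp itself was lower with siEfp in both lines. The TRIM25 signal was 7.96 in siEfp-treated and 9.42 in siControl-treated Ishikawa cells, and 7.93 in siEfp-treated and 9.50 in siControl-treated HEC-1A cells, or 2.75-fold and 2.97-fold lower. Over all probe sets, array medians lay between 5.63 and 5.69, and arrays of the same line correlated at 0.992 in Ishikawa and 0.993 in HEC-1A cells. Of the epithelial markers, 6 of 6 were measured, and all 6 had lower signals with siEfp in both lines, with medians of -0.28 (Ishikawa) and -0.27 (HEC-1A). EPCAM had signals of 11.24 in both Ishikawa arrays and of 7.05 (siEfp) and 7.26 (siControl) in HEC-1A cells, and CDH1 had signals of 9.62 (siEfp) and 10.22 (siControl) in Ishikawa cells, and of 3.74 (siEfp) and 4.07 (siControl) in HEC-1A cells. Mean signals over the 4 arrays ran from 2.86 to 6.89 for 6 of 6 stromal markers, with COL1A1 highest and LUM lowest, from 3.02 to 4.93 for 4 of 5 immune markers, and from 3.23 to 4.77 for 4 of 4 endothelial markers. The immune marker LYZ differed by 0.46 in Ishikawa cells and by 0.38 in HEC-1A cells, at signals between 3.08 and 3.54. ESR1, which encodes ERα, had a signal of 6.65 (siEfp) and 6.91 (siControl) in Ishikawa cells, and of 4.77 (siEfp) and 4.45 (siControl) in HEC-1A cells. The part of these marker genes in the results on ribosomal protein genes was not tested. In total RNA of a culture, fewer cells that carry a transcript and less of it per cell cannot be told apart.

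The ribosomal protein genes had strong signals, although a signal also depends on its probes, so that members are not ranked by level. The median over the members was 10.75 in siEfp-treated and 10.74 in siControl-treated Ishikawa cells, and 10.70 in siEfp-treated and 10.64 in siControl-treated HEC-1A cells, against medians between 6.25 and 6.34 over all genes on the 4 arrays. A mean signal of 10 or more was reached by 41 members and by 942 of all genes. Only 5 members lay below the median gene of 6.31, namely RPL34-DT, RPL10L, RPS27L, RPL22 and RPL3L. Strong members differed little between siEfp and siControl: the SD of the differences was 0.157 in Ishikawa and 0.130 in HEC-1A cells over the 41 strong members, and 0.294 and 0.253 over the other 26.

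In Ishikawa cells the ribosomal protein genes lay close to 0 as a group. Their median difference, siEfp minus siControl, was -0.00 (SD 0.22 over members), against 0.01 over all genes and -0.00 over genes with a signal of 10 or more. The signal was lower with siEfp in 37 members and higher in 30, against 47.6% lower and 52.2% higher among all genes. At least 1.2-fold lower were 7 members (10.4%, against 15.2% of all genes), and at least 1.2-fold higher were 2 (2.99%, against 14.5%). The 7 were RPL22, RPS29, RPS27, RPS23, RPS27L, RPL37A and RPL39L, and the 2 were RPS19 and RPL34-DT. At 1.5-fold, RPL22 and RPS29 were lower and RPS19 was higher (3.72% and 1.49% of all genes), and no member reached 2-fold (0.804% of all genes were lower and 0.136% higher by that much). A smaller share of the members than of all genes lay past 1.2-fold in both directions. Among genes with a signal of 10 or more, which differed less, 12.5% were at least 1.2-fold lower and 7.75% higher. Of the 41 members with such a signal, 1 was lower and 1 was higher by that much.

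In HEC-1A cells most members had a slightly higher signal with siEfp. The signal was higher in 47 of 67 members (70.1%) and lower in 20, against 52.1% higher and 47.7% lower among all genes and 52.7% higher among genes with a signal of 10 or more. The median difference was small at 0.06 (SD 0.19 over members), against 0.01 over all genes. It was shared by both subunits, with 26 of 36 canonical large subunit proteins and 16 of 21 small subunit proteins higher. Of the 41 members with a signal of 10 or more, 33 were higher. Among these 41, 1 was at least 1.2-fold higher and 1 at least 1.2-fold lower. Of all genes with such a signal, 6.26% were higher and 10.1% lower by that much. At least 1.2-fold higher were 6 members (8.96%, against 12.7% of all genes), namely RPL23, RPS19, RPS27L, RPS24, RPL26L1 and RPL7L1, and at least 1.2-fold lower were 5 (7.46%, against 12.5%), namely RPL34-DT, RPS23, RPS29, RPS27 and RPL39L. No member reached 1.5-fold (1.34% of all genes were higher and 2.04% lower by that much) or 2-fold (0.103% higher and 0.271% lower). Members share their array and its normalization, so the count of 47 has no test, and the difference between the lines in the response could not be tested, since no replicate is left for an interaction term.

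**Figure D1:**
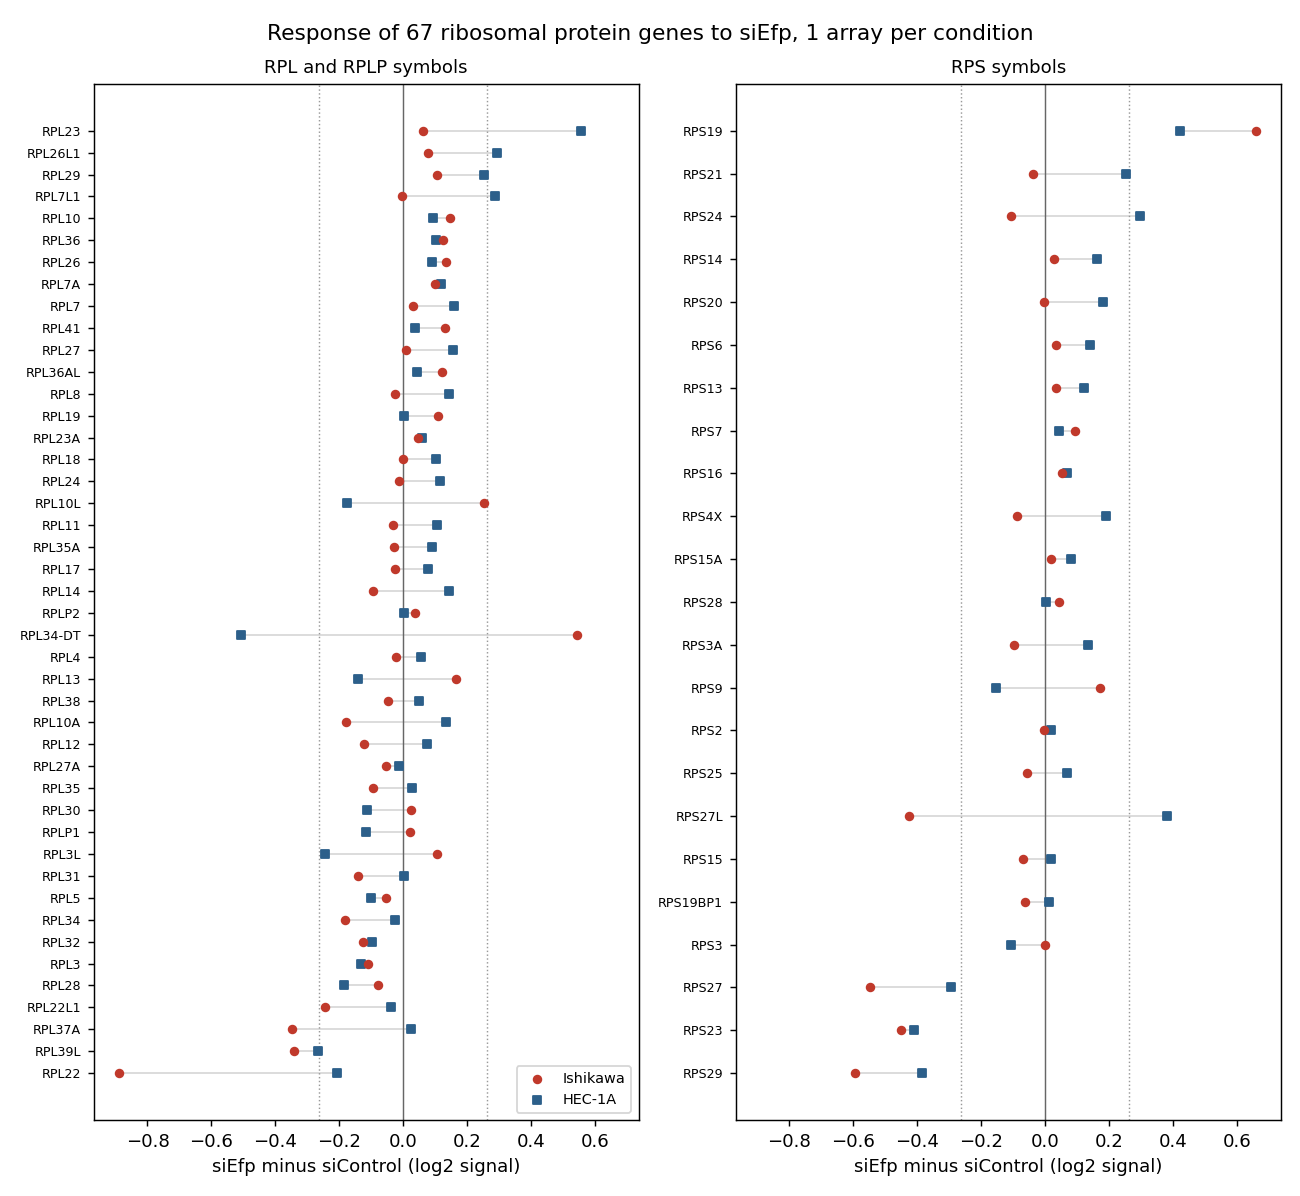
Difference in log2 signal, siEfp minus siControl, of the 67 ribosomal protein genes in Ishikawa (circles) and HEC-1A cells (squares), ordered by the mean of both lines within the RPL and RPLP symbols (left) and the RPS symbols (right). Dotted lines mark 1.2-fold, and 1 array stands behind each condition. Most genes lie between the dotted lines, whereas RPS19 lies beyond them on the right and RPS23, RPS27 and RPS29 on the left in both lines.

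A few members differed in the same direction in both lines. RPS23, RPS27, RPS29 and RPL39L were at least 1.2-fold lower in both (4 of 67, 5.97%, against 4.95% of all genes), and RPS19 was at least 1.2-fold higher in both (1.49%, against 3.48%). RPS27L was lower in Ishikawa and higher in HEC-1A cells (1.23% of all genes), and RPL34-DT the reverse (1.29%). Across the 67 members the differences in both lines had a Pearson r of 0.26 and a Spearman rho of 0.16, against 0.33 and 0.24 over all genes. Without RPS19, RPS23, RPS27 and RPS29, r was -0.07 and rho 0.00 over the other 63. These 4 are the small subunit proteins past 1.2-fold in the same direction in both lines, so the second pair of values is a description only, and the points share 4 arrays that were normalized together.

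With the lines taken as replicates of the siRNA, no member passed the test. limma, fitted to all 4 arrays with a block for cell line, called 0 of the 67 members at an adjusted p under 0.05, against 0.157% of all genes lower and 0.00543% higher. At an unadjusted p under 0.05, 5 members were lower (7.46%, against 6.79% of all genes) and 1 was higher (1.49%, against 5.19%). The 5 were RPS29, RPS23, RPS27, RPL22 and RPL39L, and the 1 was RPS19. TRIM25 had a limma difference of -1.52 (SE 0.12) and an adjusted p of 0.0342 in the same fit. The fit has 1 residual degree of freedom per gene and rests on the prior that limma takes from all genes.

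**Figure D2:**
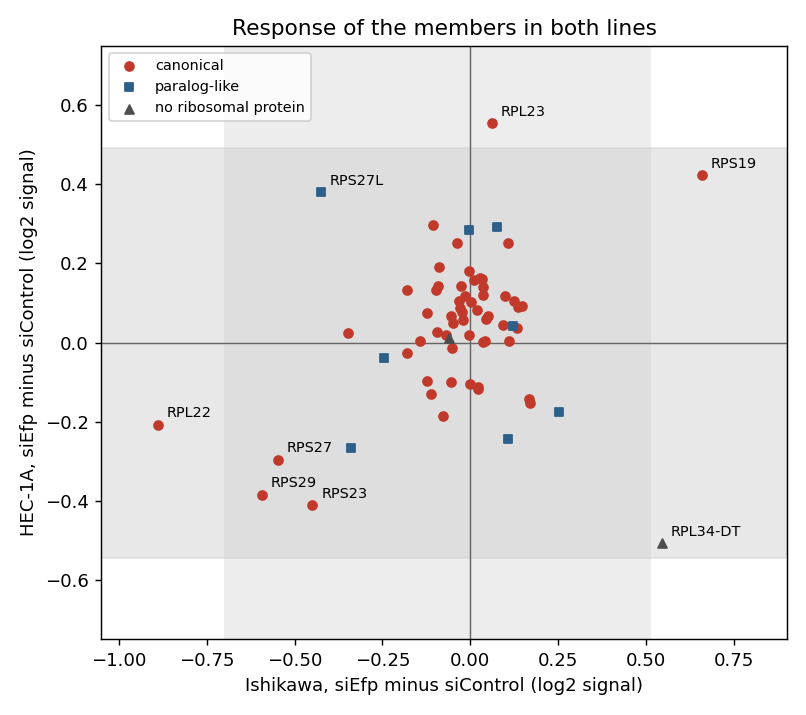
Difference in log2 signal, siEfp minus siControl, in Ishikawa (horizontal axis) and HEC-1A cells (vertical axis), 1 point per ribosomal protein gene. Grey bands span the central 95% of the differences of all genes in each line, from -0.70 to 0.51 in Ishikawa and from -0.54 to 0.49 in HEC-1A cells. Most points lie close to 0, with RPS19 at the upper right, RPL22, RPS27, RPS29 and RPS23 at the lower left and RPL23 at the top.

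Among the small subunit proteins, RPS19 stood highest. RPS19, a protein of the small subunit's head that is needed to mature its ribosomal RNA and the gene most often mutated in Diamond-Blackfan anemia, had signals of 11.40 in siEfp-treated and 10.74 in siControl-treated Ishikawa cells, and of 11.42 in siEfp-treated and 11.00 in siControl-treated HEC-1A cells. Both siEfp arrays lay above both siControl arrays. The difference was 0.66 in Ishikawa cells, or 1.58-fold, the 167th highest of the 18417 genes, and 0.42 in HEC-1A cells, or 1.34-fold, the 777th highest. limma gave 0.54 (SE 0.13, adjusted p = 0.195), and the adjusted p was 0.0453 with an intensity trend and 0.0272 without genes below the median signal.

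RPS27, RPS29 and RPS23 were lower with siEfp in both lines. RPS27, a zinc-binding protein of the small subunit, had signals of 11.20 in siEfp-treated and 11.75 in siControl-treated Ishikawa cells, and of 11.62 in siEfp-treated and 11.91 in siControl-treated HEC-1A cells. Within each line the siEfp array was the lower one, by -0.55 and -0.30, and its 2 probe sets differed alike, by -0.57 and -0.53 in Ishikawa and by -0.31 and -0.29 in HEC-1A cells. RPS29, another zinc-binding protein, in the head of the small subunit, had signals of 6.51 in siEfp-treated and 7.10 in siControl-treated Ishikawa cells, and of 6.32 in siEfp-treated and 6.70 in siControl-treated HEC-1A cells, all of them close to the median of all genes. Both siEfp arrays lay below both siControl arrays, by -0.59 in Ishikawa and -0.38 in HEC-1A cells. RPS23, a protein of the decoding centre, had signals of 9.39 in siEfp-treated and 9.84 in siControl-treated Ishikawa cells, and of 8.61 in siEfp-treated and 9.02 in siControl-treated HEC-1A cells. Its difference was nearly the same in both lines, -0.45 and -0.41, although its level differed more between the lines than between the siRNAs. limma over both lines gave -0.42 for RPS27 (SE 0.13, adjusted p = 0.288), -0.49 for RPS29 (SE 0.13, adjusted p = 0.216) and -0.43 for RPS23 (SE 0.12, adjusted p = 0.243), and without genes below the median signal the adjusted p of RPS29 was 0.0392.

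Other proteins of the decoding site and the head differed less. A list of these that does not hold RPS19 was measured for 6 of 8 proteins, RPS2, RPS3, RPS15, RPS20, RPS23 and RPS29. RPS23 and RPS29 were at least 1.2-fold lower with siEfp in both lines, and the other 4 stayed within 1.2-fold as means of their probe sets. RPS15 differed by -0.07 in Ishikawa and 0.02 in HEC-1A cells as a mean of 2 probe sets. In Ishikawa cells its strong probe set (signal 11.48) differed by -0.27, past 1.2-fold, and its dim one (5.05) by 0.14. RPS2 and RPS3, which line the mRNA entry, and RPS20 had differences of -0.00 each in Ishikawa cells, and of 0.02, -0.11 and 0.18 in HEC-1A cells. RPS24, a Diamond-Blackfan anemia gene, had signals of 9.48 in siEfp-treated and 9.59 in siControl-treated Ishikawa cells, and of 10.01 in siEfp-treated and 9.71 in siControl-treated HEC-1A cells. It was thus 0.30 higher in HEC-1A cells and differed by -0.11 in Ishikawa cells. Of the 10 measured Diamond-Blackfan anemia genes, 5 were lower and 5 higher in Ishikawa cells, and 2 lower and 8 higher in HEC-1A cells. Among all 67 members, 55.2% were lower in Ishikawa and 70.1% higher in HEC-1A cells, against 47.6% and 52.1% of all genes. RPS6, the substrate of the S6 kinases, differed by 0.03 and 0.14.

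**Figure D3:**
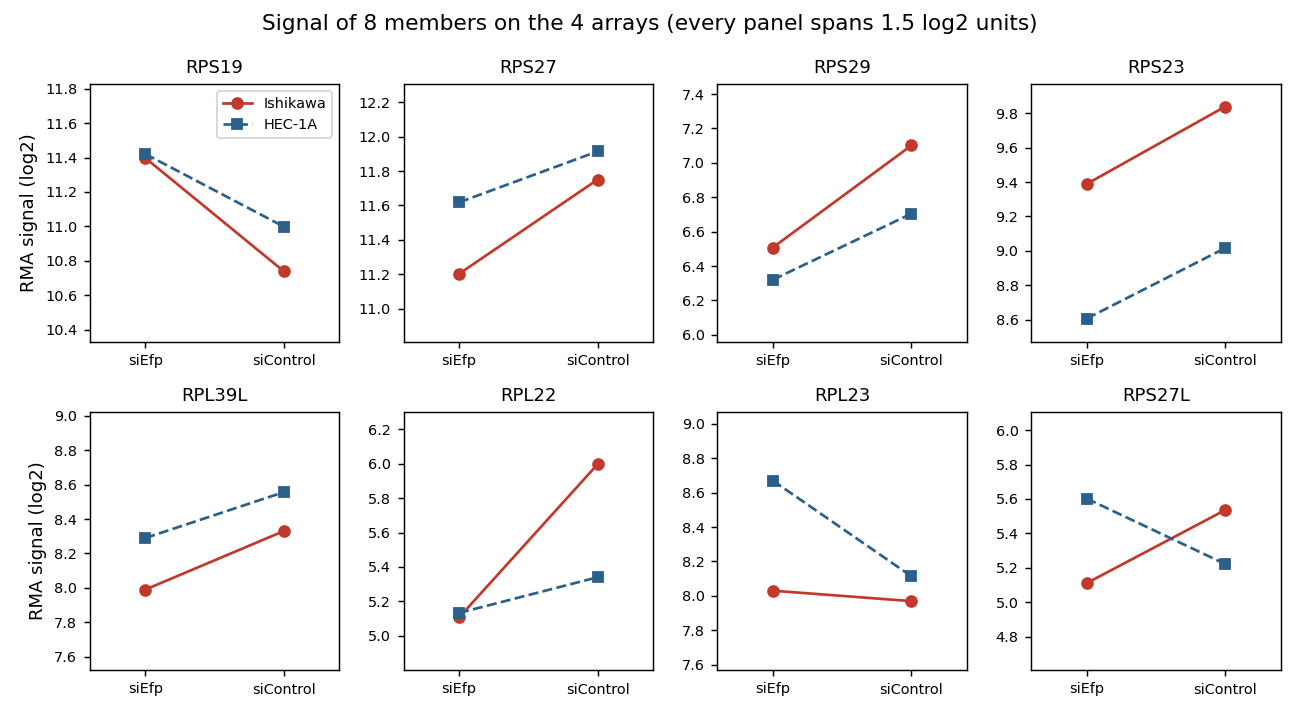
RMA signal (log2, vertical axes, each spanning 1.5 units) of 8 ribosomal protein genes in siEfp-treated and siControl-treated cells, 1 array per point, with Ishikawa as solid red and HEC-1A as dashed blue lines. RPS19 is higher with siEfp in both lines, RPS27, RPS29, RPS23 and RPL39L are lower in both, RPL22 differs mainly in Ishikawa cells, RPL23 mainly in HEC-1A cells, and the lines cross for RPS27L.

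Among the canonical large subunit proteins RPL22 was the lowest in both lines. RPL22, a protein at the rim of the exit tunnel that is often mutated in endometrial tumours with mismatch repair defects, had signals of 5.11 in siEfp-treated and 5.997 in siControl-treated Ishikawa cells, and of 5.13 in siEfp-treated and 5.34 in siControl-treated HEC-1A cells. The siControl-treated Ishikawa cells stood apart from the other 3 arrays, and the difference was -0.89 in Ishikawa cells, or 1.85-fold, the 218th lowest of all genes, and -0.21 in HEC-1A cells. These signals were below the median gene, and limma gave -0.55 (SE 0.18, adjusted p = 0.314). RPL22L1, the paralog of RPL22, was not higher where RPL22 was lower, with signals of 6.99 in siEfp-treated and 7.23 in siControl-treated Ishikawa cells, and of 7.01 in siEfp-treated and 7.05 in siControl-treated HEC-1A cells.

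RPL23, on the face of the large subunit that meets the small one, had signals of 8.03 in siEfp-treated and 7.97 in siControl-treated Ishikawa cells, and of 8.67 in siEfp-treated and 8.11 in siControl-treated HEC-1A cells. The siEfp-treated HEC-1A cells were the highest of the 4 arrays, and the difference of 0.56 there, or 1.47-fold, was the 303rd highest of all genes. limma over both lines gave 0.31 (SE 0.15, adjusted p = 0.498). RPL5 and RPL11, which like RPL23 can bind MDM2, differed by -0.06 and -0.03 in Ishikawa and by -0.10 and 0.10 in HEC-1A cells. RPL37A had signals of 8.90 in siEfp-treated and 9.25 in siControl-treated Ishikawa cells, and of 9.11 in siEfp-treated and 9.09 in siControl-treated HEC-1A cells, so that it was lower by 0.35 in Ishikawa cells and differed by 0.02 in HEC-1A cells.

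RPLP1 and RPLP2, which form the stalk that recruits elongation factors, differed by 0.02 and 0.04 in Ishikawa and by -0.12 and 0.00 in HEC-1A cells. Of the 8 measured proteins of the exit tunnel and its rim, 5 were lower and 3 higher in Ishikawa cells. In HEC-1A cells 1 (RPL22) was lower and 7 were higher. For comparison, 47.6% of all genes were lower in Ishikawa cells and 52.1% higher in HEC-1A cells, where 70.1% of all members were higher. RPL22 in Ishikawa cells was the only difference past 1.2-fold among these 8. RPL29 and RPS21 were higher by 0.25 each in HEC-1A cells, against 0.11 and -0.04 in Ishikawa cells. At the other end, RPL28 was lower by 0.19, RPL13 by 0.14 and RPS9 by 0.15 in HEC-1A cells. RPL13 and RPS9 were higher by 0.17 in Ishikawa cells. The value of RPS9 in HEC-1A cells is a mean of probe sets with opposite signs, at -0.53 and, for the brighter one, 0.22.

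The paralog-like genes, several of which are used in only some tissues, had differences with an SD of 0.247 (Ishikawa) and 0.258 (HEC-1A), against 0.211 and 0.168 over the canonical members. RPL39L, a testis paralog of RPL39, had signals of 7.99 in siEfp-treated and 8.33 in siControl-treated Ishikawa cells, and of 8.29 in siEfp-treated and 8.56 in siControl-treated HEC-1A cells, and limma gave -0.30 (SE 0.12, adjusted p = 0.399). RPS27L, a paralog of RPS27 and a target of p53, had signals of 5.11 in siEfp-treated and 5.54 in siControl-treated Ishikawa cells, and of 5.60 in siEfp-treated and 5.22 in siControl-treated HEC-1A cells. In contrast to RPS27, it was thus 0.38 higher in HEC-1A cells, where its signal was also below the median gene. RPL26L1 and RPL7L1 were higher by 0.29 each in HEC-1A cells, against 0.08 and -0.00 in Ishikawa cells. RPL10L and RPL3L, paralogs of testis and of striated muscle, were dim and differed by 0.25 and 0.11 in Ishikawa and by -0.18 and -0.24 in HEC-1A cells.

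The levels were also compared between the lines. The median difference of the members, Ishikawa minus HEC-1A, was 0.00, with 34 members higher and 33 lower in Ishikawa cells. Across the 67 members, siControl-treated Ishikawa and HEC-1A cells correlated at r = 0.99, against 0.958 over all probe sets, a value that the fixed differences between probes raise. In limma's fit over the 4 arrays, 5 members were higher in Ishikawa cells at an adjusted p under 0.05 (7.46%, against 17% of all genes) and 1 was lower (1.49%, against 18.3%). Both shares lay below those of all genes, which was not itself tested. In this fit the siEfp and siControl arrays of a line stand in as its replicates. The p-values therefore do not measure the spread between cultures of a line given the same siRNA.

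RPS23 and RPL10 differed most between the lines. RPL10, an X-linked protein that joins the large subunit late in its assembly, had signals of 12.54 (siEfp) and 12.39 (siControl) in Ishikawa cells, and of 11.74 (siEfp) and 11.64 (siControl) in HEC-1A cells. Both Ishikawa arrays lay above both HEC-1A arrays, by 0.78 in limma (SE 0.12, adjusted p = 0.00319), and RPS23 was higher by 0.80 (SE 0.12, adjusted p = 0.00275). RPS3A, a small subunit protein at the mRNA exit, was higher in Ishikawa cells by 0.43 in limma (SE 0.13, adjusted p = 0.0415), RPL8, a protein beside the peptidyl transferase centre, by 0.41 (SE 0.12, adjusted p = 0.0429), and RPL27A by 0.38 (SE 0.12, adjusted p = 0.0478). RPL32, a large subunit protein, had signals of 7.31 (siEfp) and 7.44 (siControl) in Ishikawa cells, and of 7.75 (siEfp) and 7.85 (siControl) in HEC-1A cells, lower by 0.42 in limma (SE 0.12, adjusted p = 0.0341). RPL27A and RPS3A were no longer called with the brightest probe set of each gene, and RPL8 was not after a second quantile normalization. In RPL27A the weakest of 3 probe sets had signals of 7.81 (siEfp) and 8.24 (siControl) in Ishikawa cells. In HEC-1A cells it had 6.92 (siEfp) and 7.10 (siControl). The brightest had 11.08 and 10.96 in Ishikawa and 10.99 and 10.90 in HEC-1A cells, in the same order. The remaining probe set also differed little between the lines, with 7.64 and 7.49 against 7.54 and 7.48. The next members, RPL31 (limma difference -0.37, adjusted p = 0.0568) and RPL24 (limma difference -0.34, adjusted p = 0.0764), did not pass.

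**Figure D4:**
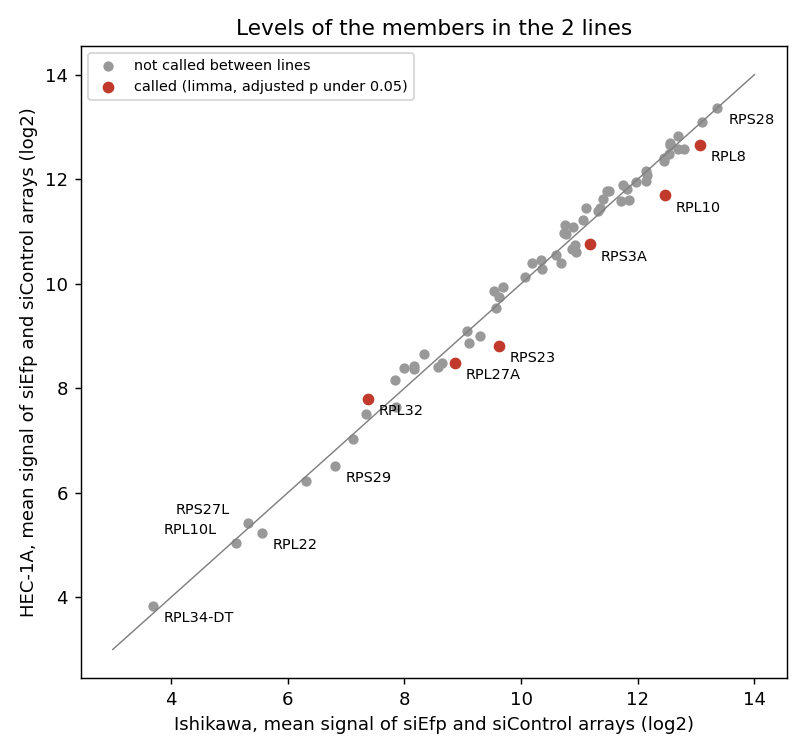
Mean log2 signal of the siEfp and siControl arrays in Ishikawa (horizontal axis) and HEC-1A cells (vertical axis), 1 point per ribosomal protein gene, with the diagonal of equal signal. Red points were called between the lines by limma at an adjusted p under 0.05. The points follow the diagonal, with RPL10 and RPS23 farthest below it and RPL32 above it.

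Members with several probe sets allow a check within the gene. Of the 67 members, 23 had several probe sets (102 probe sets over all members), and in 18 of the 23 their differences lay within a range of 0.3 in both lines, which is wider than 1.2-fold (0.263) and leaves room for opposite signs. In 3 they spread by more than 0.5 in a line. RPL27A ran between -0.43 and 0.15 in Ishikawa cells over 3 probe sets, and in HEC-1A cells RPS9 ran between -0.53 and 0.22 and RPL26L1 between -0.05 and 0.64 over 2 probe sets each. RPS19, RPS23, RPS29, RPL22 and RPL23 each rested on 1 probe set. RPL41 had 3 probe sets, of which a pair held identical values.

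Genes around the ribosome gave no call by limma in any list (0 of each list at an adjusted p under 0.05). Of all genes 0.157% were called lower and 0.00543% higher, so 0 calls in a short list say little. Of the translation initiation factors, 31 of 33 were measured, with medians of -0.06 (Ishikawa) and 0.06 (HEC-1A). EIF6, which keeps the large subunit from joining the small one, had signals of 10.40 in siEfp-treated and 10.86 in siControl-treated Ishikawa cells, and of 11.20 in siEfp-treated and 11.68 in siControl-treated HEC-1A cells, and limma gave -0.47 (SE 0.12, adjusted p = 0.214). EIF4E, the cap-binding protein, was dim and differed by 0.21 and 0.54. The elongation factors, 6 of 8 measured, had medians of -0.03 and 0.08. A list of mRNAs known to carry a TOP motif that are not members, 17 of 20 measured, had medians of -0.11 and 0.06. It shares genes with the lists of initiation and elongation factors, among them EIF3F and EEF1A1, so the lists are not independent. Of these 17, 12 were lower and 5 higher in Ishikawa cells (47.6% of all genes were lower), and 7 were lower and 10 higher in HEC-1A cells (47.7% lower). TPT1, a classical TOP mRNA, differed by -0.24 in Ishikawa and 0.36 in HEC-1A cells. FAU, which encodes RPS30, differed by -0.15 and 0.07.

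Regulators and assembly partners of ribosomal proteins held wider single differences. Of the regulators of ribosomal protein synthesis, 16 of 16 were measured, with medians of -0.04 (Ishikawa) and -0.07 (HEC-1A). MYC, a transcription factor that drives ribosome production, had signals of 8.67 in siEfp-treated and 9.67 in siControl-treated Ishikawa cells, and of 10.48 in siEfp-treated and 10.67 in siControl-treated HEC-1A cells, and limma gave -0.60 (SE 0.20, adjusted p = 0.322). RPS6KB1, the S6 kinase that phosphorylates RPS6, was lower in both lines, with signals of 8.10 in siEfp-treated and 8.53 in siControl-treated Ishikawa cells, and of 7.99 in siEfp-treated and 8.48 in siControl-treated HEC-1A cells (limma difference -0.46, SE 0.12, adjusted p = 0.221). MTOR differed by 0.06 and 0.23 and LARP1 by 0.04 and -0.13. Of the chaperones and importers of ribosomal proteins, 15 of 15 were measured, with medians of -0.09 and -0.00. IPO9, which carries ribosomal proteins into the nucleus, differed by -0.92 (Ishikawa) and -0.32 (HEC-1A) (limma difference -0.62, SE 0.17, adjusted p = 0.230), and LTV1, an assembly factor of the small subunit, by -0.50 and -0.19.

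Genes that act on stalled ribosomes or modify ribosomal proteins, 14 of 15 measured, had medians of 0.08 in both lines. OTUD3, a deubiquitinase of small subunit proteins, had signals of 7.10 in siEfp-treated and 6.70 in siControl-treated Ishikawa cells, and of 6.60 in siEfp-treated and 5.96 in siControl-treated HEC-1A cells, and limma gave 0.52 (SE 0.13, adjusted p = 0.199). LTN1, the ligase that marks the chain on a stalled large subunit, differed by 0.25 and 0.43. On the route to p53, 4 of 5 genes were measured. MDM2 differed by -0.09 (Ishikawa) and -0.47 (HEC-1A), and CDKN1A, a p53 target, by 0.10 and 0.00.

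Many ribosomal protein genes carry small nucleolar RNAs (snoRNAs), guides for the modification of other RNAs, in their introns. Of 54 such snoRNAs listed, 29 had a probe set, from 17 host genes. Their mean signals ran from 4.36 (SNORA33) to 11.35 (SNORD33). In Ishikawa cells 19 of the 29 were lower with siEfp and 10 higher, with a median of -0.15, where 47.6% and 52.2% of all genes were. Past 1.2-fold there were 8 lower and 1 higher, where 15.2% and 14.5% of all genes were. In HEC-1A cells 7 were lower and 22 higher, with a median of 0.17, where 47.7% and 52.1% of all genes were. Past 1.2-fold there were 3 lower and 7 higher, where 12.5% and 12.7% of all genes were. More snoRNAs were thus lower in Ishikawa cells and more were higher in HEC-1A cells, which was not tested. SNORA52, in an intron of RPLP2, had signals of 7.67 in siEfp-treated and 7.26 in siControl-treated Ishikawa cells, and of 8.59 in siEfp-treated and 7.40 in siControl-treated HEC-1A cells. It was higher by 0.42 and 1.19, whereas its host RPLP2 differed by 0.04 and 0.00. Its counterpart at the low end in Ishikawa cells was SNORD15A, in an intron of RPS3, at -0.70, with 0.28 in HEC-1A cells.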

How the data were processed

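The authors deposited log2 signals per probe set of 4 arrays, made with RMA in Affymetrix Expression Console according to the submitters' processing notes (neither versions nor genome build are given in the sources used here). RMA gives all arrays the same distribution of probe signals, so that a shift of all genes together would not be seen, and narrows the differences of dim probe sets. The array named in the study's methods is Human Exon 1.0 ST, but the numbering of the probe sets is that of Human Gene 1.0 ST. The number of arrays limits the precision.

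Of 33297 probe sets, 19460 had 1 gene symbol, 1754 had several and 12083 were unnamed here. Those with 1 symbol were averaged to 18417 genes. The RefSeq table of GRCh38.p14 held 19429 of the 19460, and 0 symbols were changed through it. Within each line siControl was subtracted from siEfp, and genes were counted at 1.2-fold. R 4.3.3 with limma 3.58.1 fitted siRNA and cell line as terms to the 4 arrays (1 residual degree of freedom), and p-values were adjusted over all genes by the Benjamini-Hochberg method. The fit takes the lines as replicates of 1 siRNA effect, and the siRNAs as replicates of 1 difference between the lines. Tables and plots were made in Python 3.11.15 (matplotlib 3.10.9, pandas 2.3.3, numpy 2.4.6, scipy 1.17.1).

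The members, gene lists and tests were chosen with earlier results of these data known. Members were named from the 8 lowest and 8 highest differences in each line, the 5 that differed most in both lines each way, those past 1.5-fold, the 5 highest and 5 lowest signals, the 8 highest and 8 lowest differences between the lines, those whose probe sets differ by over 0.5, and members of listed roles. Of each other list up to 4 genes at each end, and of the snoRNAs up to 3, could be named. MTOR, LARP1 and RPS6 were named outside this rule, after their values had been seen. Alternatives were centring on the median of all genes, a second quantile normalization, the brightest probe set, leaving out dim genes, canonical members only, the mean, other thresholds, no block and an intensity trend. No build is named for the arrays, so no probe coordinates are given.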

Additional observations from a re-analysis of the deposited data

Results flagged for a closer look

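Genes whose siEfp array lay at least 1.2-fold below siControl in 1 line and at least 1.2-fold above it in the other are given here, with 1 array per condition, so that the difference between the lines was not tested. RPL34-DT, the divergent transcript beside RPL34, differed by 0.55 in Ishikawa and -0.51 in HEC-1A cells, 1.05 apart, at signals between 3.42 and 4.09. RPS27L differed by -0.43 in Ishikawa and 0.38 in HEC-1A cells, so that Ishikawa minus HEC-1A was -0.81, at signals between 5.11 and 5.60. Among the snoRNAs, Ishikawa minus HEC-1A was -0.99 for SNORD102 (-0.52 and 0.47), -0.98 for SNORD15A (-0.70 and 0.28) and -0.63 for SNORD21 (-0.33 and 0.30).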

How the results depend on the processing

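The median of the members in Ishikawa cells was close to 0 and turned to 0.00775 with a second quantile normalization. The median in HEC-1A cells was between 0.05 and 0.07 under the alternatives tried, and the mean was 0.03. Of 7 members lower in Ishikawa cells, 2 were left at 1.5-fold and 0 at 2-fold. With the brightest probe set of each gene, 8 were at least 1.2-fold lower there. Of the 2 higher there, 1 was left at 1.5-fold, without genes below the median signal or among canonical members, and 0 at 2-fold. In HEC-1A cells 3 of 5 lower and 3 of 6 higher members were canonical, and 0 each passed 1.5-fold or 2-fold. Across both lines limma called 1 member with an intensity trend (RPS19, adjusted p = 0.0453), where it called 182 of 18417 genes. Without genes below the median signal it called 2 of the 62 members left (RPS19, adjusted p = 0.0272, and RPS29, adjusted p = 0.0392). There it called 615 of 9209 genes, against 30 of 18417 in the main fit. It called 0 members under the other settings. Without the replicate block, that is without the term for cell line, limma called 0 members across the lines. Without the term for siRNA, it called 2 in place of 6 between the lines (RPL10 and RPS23), and 5156 in place of 6486 of all 18417 genes. Between the lines it called 14 with an intensity trend, 11 without dim genes and 10 at an adjusted p under 0.1. It called 5 with the brightest probe set (RPL27A and RPS3A lost, RPL26L1 gained) and 5 after a second quantile normalization (RPL8 lost). In the same order it called 6848, 5317 (of 9209), 7743, 6443 and 6753 of all genes. The causes of these changes were not tested. RPS19, RPS23, RPS27, RPS29, RPL22 and RPL39L kept their direction in both lines under the alternatives run for them. Leaving out an array leaves no residual degree of freedom, so this was not run.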
